A study of Homo sapiens with 12 samples.

Results

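The HOX cluster genes are the 39 human genes HOXA, HOXB, HOXC and HOXD with a number, and their mRNA levels were described here in A375 cells carrying mutants of YAP. Every symbol of this form was taken from the deposited table, and where a symbol stood on several entries the entry with the highest mean was kept. The 39 symbols lay on 32 of the 31585 distinct entries of the table. Of these symbols, 13 shared 6 entries with a neighbor (HOXA5/A6, HOXA9/A10, HOXB3/B4, HOXB5/B6, HOXB7/B9 and HOXC4/C5/C6), and the members of a shared entry could not be told apart.

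All 4 groups were cells of the human melanoma line A375, stably transduced with an MSCV retroviral vector that confers hygromycin resistance, with 3 libraries each. Control cells carried the empty vector MSCV-IRES-Hygro. The others expressed YAP with S127A (YAP-S127A), YAP with S94A and S127A (YAP-S94A,S127A) or YAP with S127A and S381A (YAP-2SA), in addition to the YAP1 of the cells themselves. S127A and S381A remove serines phosphorylated by the LATS kinases, which restrain YAP, and S94A impairs the binding of YAP to the TEAD transcription factors. All cells were grown on plastic in the same serum-containing medium, for 24 h after plating by the sample records, whereas the methods of the study give a longer culture. A field of the YAP-2SA records also names S94A, but their titles and the vector do not, and the titles were followed.

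HOX genes encode homeodomain transcription factors and lie in 4 clusters, in which the order of the genes along the chromosome follows their order of use along the body axis, with low paralog numbers used toward the head and high numbers toward the tail. Adult cells keep much of the HOX pattern of their site of origin. Polycomb complexes hold HOX genes silent, Trithorax complexes keep them active, retinoic acid opens the low-numbered end, and the proteins bind DNA with PBX, MEIS and PKNOX partners.

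Levels are FPKM, the fragments assigned to a gene divided by its transcript length and by the mapped fragments of the library, so levels can be compared between genes. The depth of each library is unknown. Changes are differences between group means of log2(FPKM + 1), a scale that understates the change of low genes, and were tested with limma in a fit of all 12 libraries over the 15055 entries with at least 1 FPKM in at least 3 libraries. An entry was called where its p, adjusted over all tested entries by Benjamini and Hochberg, was under 0.05 and the ratio of mean FPKM was over 2. YAP1 was at 34.1 and 33.0 FPKM in Control replicates 1 and 2 but at 172 FPKM in the library labelled Control replicate 3, inside the range of 130 to 187 FPKM in the mutant libraries. That library was kept as Control, and the HOX results are also given without it.

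A375 cells expressed genes of all 4 clusters, but at different levels. Of the 39 symbols, 31 lay on the 24 entries that passed the filter, and 21 of these entries were at 1 FPKM or more in all 12 libraries. In HOXC, 9 of 9 symbols lay on tested entries. HOXB had 9 of 10, HOXA 8 of 11 and HOXD 5 of 9. A shared entry can pass through 1 of its members. As numbers of expressed genes, the counts for HOXA, HOXB and HOXC are therefore upper limits, while HOXD had 0 shared entries. The median of the mean level over the entries of a cluster was 12.1 FPKM in HOXB, 7.15 FPKM in HOXC, 1.65 FPKM in HOXA and 0.973 FPKM in HOXD. Of the 8 entries with a mean above 10 FPKM, 5 were in HOXB, 2 in HOXC, 1 in HOXA and 0 in HOXD. Among them, HOXA5/A6, HOXB3/B4, HOXB5/B6, HOXB7/B9 and HOXC4/C5/C6 each pool several genes, and HOXB5/B6 is also the median entry of HOXB. The clusters were therefore not compared gene by gene. The tested HOX entries had a median level of 6.59 FPKM, beside 9.76 FPKM over all tested entries.

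At least 8 of the 39 genes were silent or nearly silent. A silent member of a shared entry would not be seen, so this count is a lower limit. HOXB1, the hindbrain gene at the head end of HOXB, was listed at 0 in all 12 libraries. Another 7 symbols were above 0 but below 1 FPKM in every library. In HOXA these were HOXA7 (0.123 to 0.522 FPKM), HOXA11 (0.378 to 0.847 FPKM) and HOXA13 (0.381 to 0.791 FPKM), of which HOXA11 and HOXA13 pattern the limb and the urogenital tract. In HOXD they were HOXD1 (0.0755 to 0.630 FPKM), HOXD3 (0.0607 to 0.328 FPKM), HOXD11 (0.231 to 0.675 FPKM) and HOXD12, which was listed at 0 in 6 libraries and did not exceed 0.332 FPKM. None of these 8 symbols reached 1 FPKM in any group. The tested entries nearest the filter were HOXD4 and HOXD10, with means of 0.973 and 0.988 FPKM, and the untested ones nearest it were HOXA11 and HOXA13, with means of 0.637 and 0.546 FPKM. HOXD13, the gene at the tail end of HOXD, stood apart from HOXD11 and HOXD12 beside it and was at 3.65 to 6.06 FPKM over the 12 libraries.

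**Figure D1:**
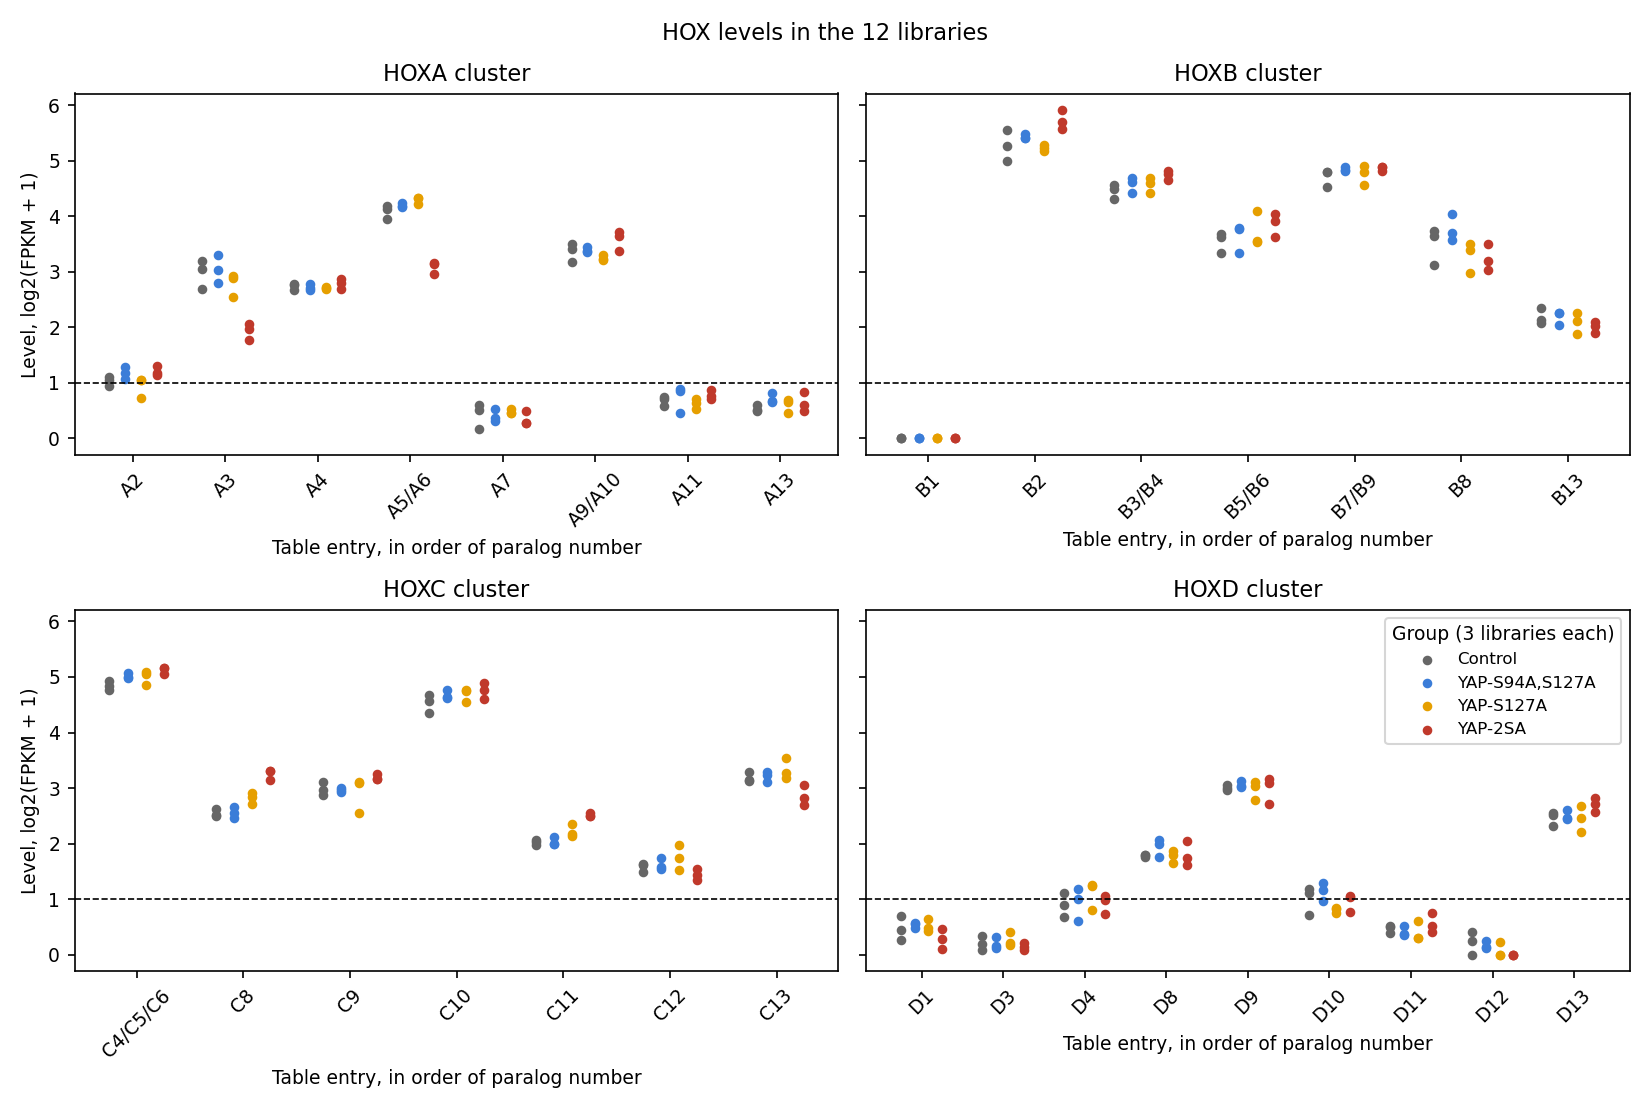
Level of HOX entries in the 12 libraries, as log2(FPKM + 1), in 1 panel per cluster with the entries in order of paralog number and the 4 groups side by side (points are libraries, 3 per group). The dashed line marks 1 FPKM, below which HOXB1, HOXA7, HOXA11, HOXA13, HOXD1, HOXD3, HOXD11 and HOXD12 lay in every library, while HOXA3 and HOXA5/A6 were lower in the YAP-2SA libraries than in the others.

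The highest HOX level was that of HOXB2, a gene of the hindbrain and neural crest, with a mean of 42.2 FPKM. HOXB2 was at 30.7, 46.1 and 37.5 FPKM in Control, 35.1, 37.9 and 36.6 FPKM in YAP-S127A, 41.5, 43.5 and 41.3 FPKM in YAP-S94A,S127A and 50.8, 59.3 and 46.5 FPKM in YAP-2SA. The YAP-2SA libraries lay above all others. The entry HOXC4/C5/C6, which covers trunk genes expressed from the neck to the thorax, followed at 26.0, 29.6 and 27.7 FPKM in Control, 28.0, 32.3 and 33.2 FPKM in YAP-S127A, 32.5, 30.5 and 31.0 FPKM in YAP-S94A,S127A and 35.0, 34.7 and 32.2 FPKM in YAP-2SA. Its YAP-2SA libraries lay above Control and overlapped those of both other mutants.

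HOXB7/B9 was at 22.01, 26.6 and 26.7 FPKM in Control, 22.6, 28.8 and 26.6 FPKM in YAP-S127A, 27.1, 28.7 and 27.3 FPKM in YAP-S94A,S127A and 27.1, 28.7 and 28.5 FPKM in YAP-2SA. HOXC10, a gene of the lower trunk and hindlimb, was at 19.5, 24.7 and 22.7 FPKM in Control, 22.3, 26.4 and 25.8 FPKM in YAP-S127A, 24.1, 26.3 and 23.7 FPKM in YAP-S94A,S127A and 23.4, 28.6 and 26.1 FPKM in YAP-2SA. The groups of HOXC10 overlapped, whereas those of HOXB7/B9 overlapped except that YAP-2SA and YAP-S94A,S127A lay above Control. HOXB3/B4 was at 18.8, 22.5 and 21.5 FPKM in Control, 20.3, 24.9 and 23.2 FPKM in YAP-S127A, 20.4, 24.9 and 23.6 FPKM in YAP-S94A,S127A and 23.99, 27.3 and 26.2 FPKM in YAP-2SA, where it lay above Control.

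In A375-YAP-2SA cells, the HOX change was a fall of 2 HOXA entries, while several HOXC and HOXB entries rose by less than 2-fold. HOXA3 and HOXA5/A6 were lower than in Control by 2.45-fold and 2.13-fold, and they were the only HOX entries called in this comparison, 2 of 24 (8.33%) beside 15.5% of all tested entries (7.86% in the lower direction). By the adjusted p alone, 9 of 24 entries changed (37.5%) beside 42.3% of all, with 6 higher (22.9% of all entries were) and 3 lower (19.5%). The share of HOX entries that changed was therefore not above the background. The median log2 fold change was 0.17 over the HOX entries and 0.01 over all tested entries, with 16 of 24 HOX entries above 0 beside 7692 of 15055. The libraries of YAP-2SA and Control did not overlap for 13 HOX entries (54.2%, 10 higher and 3 lower), beside 52.8% of all tested entries. An excess of estimates above 0 was not particular to YAP-2SA. In YAP-S94A,S127A against Control, 21 of 24 HOX entries were above 0, beside 7889 of 15055. The median there was 0.077, beside 0.006 over all tested entries. In YAP-S127A against Control, 12 of 24 were above 0. These comparisons share the Control libraries. In bulk RNA, fewer cells that express a gene and less of its RNA per cell cannot be told apart.

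HOXA5 and HOXA6 are middle genes of the cluster, used in the neck and upper thorax, and HOXA5 is known as a regulator of lung development and of p53. HOXA5 lies at chr7:27180671-27183300 and HOXA6 at chr7:27185015-27190222 of GRCh37, on the minus strand. Their entry was at 14.5, 16.4 and 17.1 FPKM in Control, 19.1, 19.1 and 17.6 FPKM in YAP-S127A, 17.0, 18.0 and 17.1 FPKM in YAP-S94A,S127A and 6.79, 7.98 and 7.83 FPKM in YAP-2SA. All 3 YAP-2SA libraries lay below the other 9. The log2 fold change was -0.995 against Control (standard error 0.075, adjusted p = 1.8e-06 from limma), -1.20 against YAP-S127A (adjusted p = 7.9e-07) and -1.11 against YAP-S94A,S127A (adjusted p = 7.0e-07), the same YAP-2SA libraries serving in all 3. HOXA5 also stood on a lesser entry, at 1.47, 2.47 and 2.72 FPKM in Control and 1.37, 1.68 and 0.805 FPKM in YAP-2SA, whose ranges overlapped.

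HOXA3, which patterns the third pharyngeal arch and its thymus and parathyroid, is annotated at chr7:27145803-27192202 on the same strand, and this span encloses HOXA4, HOXA5 and HOXA6. It was at 8.14, 5.48 and 7.24 FPKM in Control, 6.58, 4.82 and 6.38 FPKM in YAP-S127A, 8.81, 5.94 and 7.21 FPKM in YAP-S94A,S127A and 2.91, 2.43 and 3.18 FPKM in YAP-2SA. The YAP-2SA libraries again lay below the other 9. The log2 fold change was -1.04 against Control (standard error 0.17, adjusted p = 4.8e-04 from limma), -0.85 against YAP-S127A (adjusted p = 0.00275) and -1.11 against YAP-S94A,S127A (adjusted p = 2.9e-04). Against YAP-S127A the fold of 2.09 became 1.97 without YAP-S127A replicate 1 and 1.95 without YAP-2SA replicate 2, with adjusted p of 0.0125 and 0.0138. HOXA3 was then no longer called there.

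HOXA4, at chr7:27168126-27170399 inside the HOXA3 span and beside HOXA5, did not pass the test beside its neighbors. It was at 5.38 to 5.89 FPKM in Control, 5.44 to 5.64 FPKM in YAP-S127A, 5.41 to 5.84 FPKM in YAP-S94A,S127A and 5.43 to 6.34 FPKM in YAP-2SA, and the groups overlapped. Its log2 fold change in YAP-2SA against Control was 0.05, with a 95% interval from -0.10 to 0.19 and an adjusted p of 0.612 from limma. The intervals of HOXA3 (-1.41 to -0.67) and of HOXA5/A6 (-1.16 to -0.83) lay wholly below that of HOXA4. The log2 fold changes of HOXA2 (0.17) and HOXA9/A10 (0.21) did not pass the test against Control, with adjusted p of 0.242 and 0.127. Against YAP-S127A, HOXA9/A10 was higher in YAP-2SA by 0.32 (adjusted p = 0.0343), which rose to as much as 0.123 in other settings. The sum over the 9 HOXA entries was 41.7 ± 1.54 FPKM (SD, n = 3) in Control, 42.6 ± 1.28 in YAP-S127A, 44.3 ± 0.889 in YAP-S94A,S127A and 32.2 ± 1.65 in YAP-2SA.

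**Figure D2:**
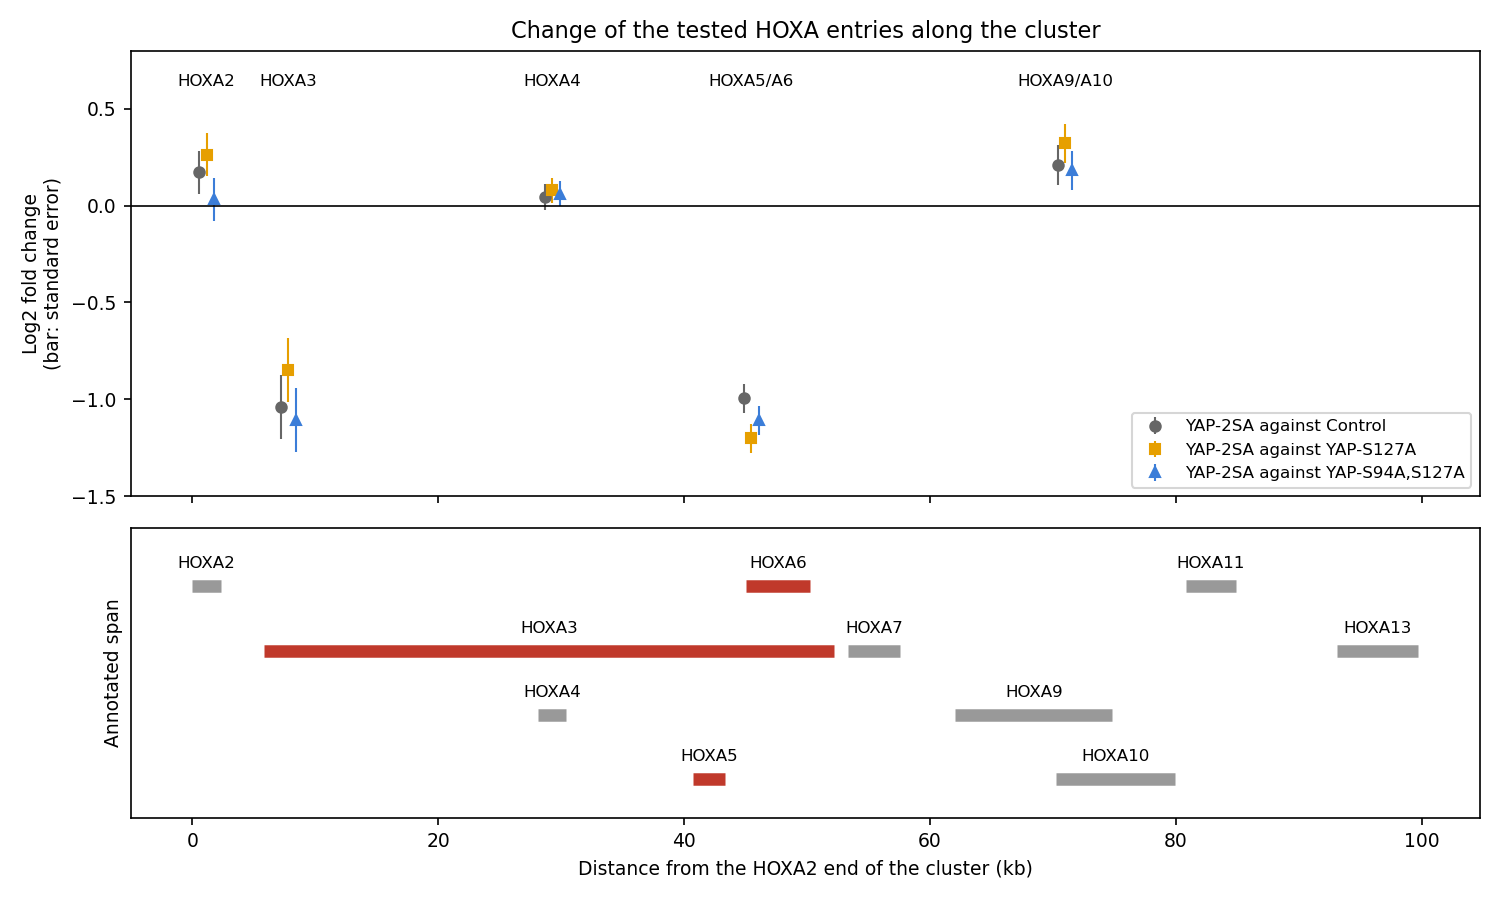
Log2 fold change of 5 tested HOXA entries in YAP-2SA against each other group (top, points with standard errors) over the annotated span of the HOXA genes in kb from the HOXA2 end (bottom, HOXA3, HOXA5 and HOXA6 in red). HOXA3 is plotted at the low end of its 46.4 kb span, and HOXA3 and HOXA5/A6 lay between -0.85 and -1.20 while HOXA4 between them stayed within 0.08 of 0.

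RefSeq start-site windows of this stretch run from 250 bases before to 50 bases after a start on GRCh38.p14. A window is shown for HOXA3, whose entry fell, for HOXA6, and for HOXA4, which did not pass the test. HOXA6 shares with HOXA5 an entry that fell and has no value of its own. No window was found for HOXA5, so the windows do not cover every gene of the entries that fell. They are written 5′ to 3′ on the strand of the gene, and capitals mark GGAATG or its reverse complement CATTCC, the core of the site that TEAD factors bind.
HOXA3 (chr7:27122978-27123277, minus strand): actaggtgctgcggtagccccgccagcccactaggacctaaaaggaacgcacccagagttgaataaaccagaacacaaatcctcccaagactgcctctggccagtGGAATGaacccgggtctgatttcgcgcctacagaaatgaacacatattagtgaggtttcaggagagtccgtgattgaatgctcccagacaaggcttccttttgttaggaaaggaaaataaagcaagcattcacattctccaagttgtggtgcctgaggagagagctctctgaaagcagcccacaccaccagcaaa
HOXA6 (chr7:27147725-27148024, minus strand): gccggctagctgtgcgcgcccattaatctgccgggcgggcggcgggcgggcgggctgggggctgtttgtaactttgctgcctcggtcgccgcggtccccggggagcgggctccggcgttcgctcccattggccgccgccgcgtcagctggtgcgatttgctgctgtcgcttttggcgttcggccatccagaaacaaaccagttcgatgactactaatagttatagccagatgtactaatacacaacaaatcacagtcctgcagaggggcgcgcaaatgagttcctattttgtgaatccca
HOXA4 (chr7:27130708-27131007, minus strand): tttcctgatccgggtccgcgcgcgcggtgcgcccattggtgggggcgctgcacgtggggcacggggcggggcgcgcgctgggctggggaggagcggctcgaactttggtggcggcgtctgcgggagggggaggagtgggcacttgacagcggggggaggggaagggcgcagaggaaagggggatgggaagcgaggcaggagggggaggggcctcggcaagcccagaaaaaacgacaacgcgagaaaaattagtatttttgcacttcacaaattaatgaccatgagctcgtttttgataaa
The core starts 145 bases before the start site of this HOXA3 window, which is 1 of 7 HOXA3 windows and the only HOXA3 window that holds it. It was not found in the HOXA6 and HOXA4 windows. As the HOXA3 window shown is the window with the core, its difference from the HOXA6 and HOXA4 windows follows from that choice. Over the 20 HOX symbols with a window, 7 of 26 distinct windows (26.9%) held the core on either strand, beside 4907 of 34943 windows (14.0%) in all, and they belonged to HOXA3, HOXA10, HOXC4 and HOXC5 (a shared window), HOXD4, HOXD8, HOXD10 and HOXD13. TGANTCA, the AP-1 core, was in 0 of 26 HOX windows and in 7.72% of all. These windows cover the clusters unevenly, with only HOXB1 of HOXB, only the shared window of HOXC, and 7 windows of HOXA3. Their shares therefore do not stand for the HOX genes as a whole. A match of letters is not evidence of binding.

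The window shared by HOXC4 and HOXC5 is shown because their entry was among the HOX entries with the highest levels and rose in YAP-2SA against Control. The entry did not pass against YAP-S127A or YAP-S94A,S127A (adjusted p = 0.229 and 0.236 from limma). No window was found for HOXB2 or HOXC8. A part of TEAD in the rise was not tested. The core in this window starts 144 bases before the start.
HOXC4 and HOXC5 (chr12:54016638-54016937, plus strand): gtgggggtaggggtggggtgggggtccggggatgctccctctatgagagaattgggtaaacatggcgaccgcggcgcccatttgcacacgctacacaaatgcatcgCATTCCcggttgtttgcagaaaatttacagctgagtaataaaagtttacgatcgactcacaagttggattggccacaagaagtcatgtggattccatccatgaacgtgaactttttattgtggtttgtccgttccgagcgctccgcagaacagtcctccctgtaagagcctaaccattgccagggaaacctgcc

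In HOXC, 3 of 7 entries rose in YAP-2SA against Control and 1 fell, without a change over 2-fold. HOXC8, a thoracic gene, was at 4.67 to 5.19 FPKM in Control, 5.55 to 6.53 FPKM in YAP-S127A, 4.48 to 5.29 FPKM in YAP-S94A,S127A and 7.83 to 8.93 FPKM in YAP-2SA. The YAP-2SA libraries lay above all others, and those of YAP-S127A lay between them and both other groups. HOXC8 rose by 0.71 on the log2 scale in YAP-2SA against Control (ratio of means 1.76, adjusted p = 5.1e-05 from limma), by 0.43 against YAP-S127A (adjusted p = 0.0025) and by 0.70 against YAP-S94A,S127A (adjusted p = 5.1e-05). HOXC11, a gene of the hindlimb and lumbosacral region, was at 2.92 to 3.20 FPKM in Control, 3.41 to 4.09 FPKM in YAP-S127A, 2.97 to 3.37 FPKM in YAP-S94A,S127A and 4.63 to 4.85 FPKM in YAP-2SA, in the same order of groups. It rose by 0.49 against Control (ratio of means 1.53, adjusted p = 4.1e-04), by 0.29 against YAP-S127A (adjusted p = 0.0136, up to 0.0561 in other settings) and by 0.47 against YAP-S94A,S127A (adjusted p = 4.9e-04). HOXC4/C5/C6 rose by 0.28 against Control (adjusted p = 0.0091).

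HOXC13, the tail-end gene of HOXC and a regulator of hair keratins, was at 7.73 to 8.84 FPKM in Control and 5.49 to 7.33 FPKM in YAP-2SA. It fell by 0.33 on the log2 scale against Control (adjusted p = 0.0386 from limma), by 0.48 against YAP-S127A (adjusted p = 0.0086) and by 0.35 against YAP-S94A,S127A (adjusted p = 0.0297). The difference from Control missed the threshold in 8 of 20 alternative settings, with an adjusted p of up to 0.137, and that from YAP-S94A,S127A in 4 of 20, with an adjusted p of up to 0.109. HOXC9, HOXC10 and HOXC12 had log2 fold changes of 0.22, 0.22 and -0.14 against Control, which did not pass the test. The HOXC entries summed to 75.0 ± 5.10 FPKM in Control, 84.0 ± 5.84 in YAP-S127A, 81.2 ± 1.68 in YAP-S94A,S127A and 89.5 ± 2.62 in YAP-2SA (SD, n = 3 each).

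**Figure D3:**
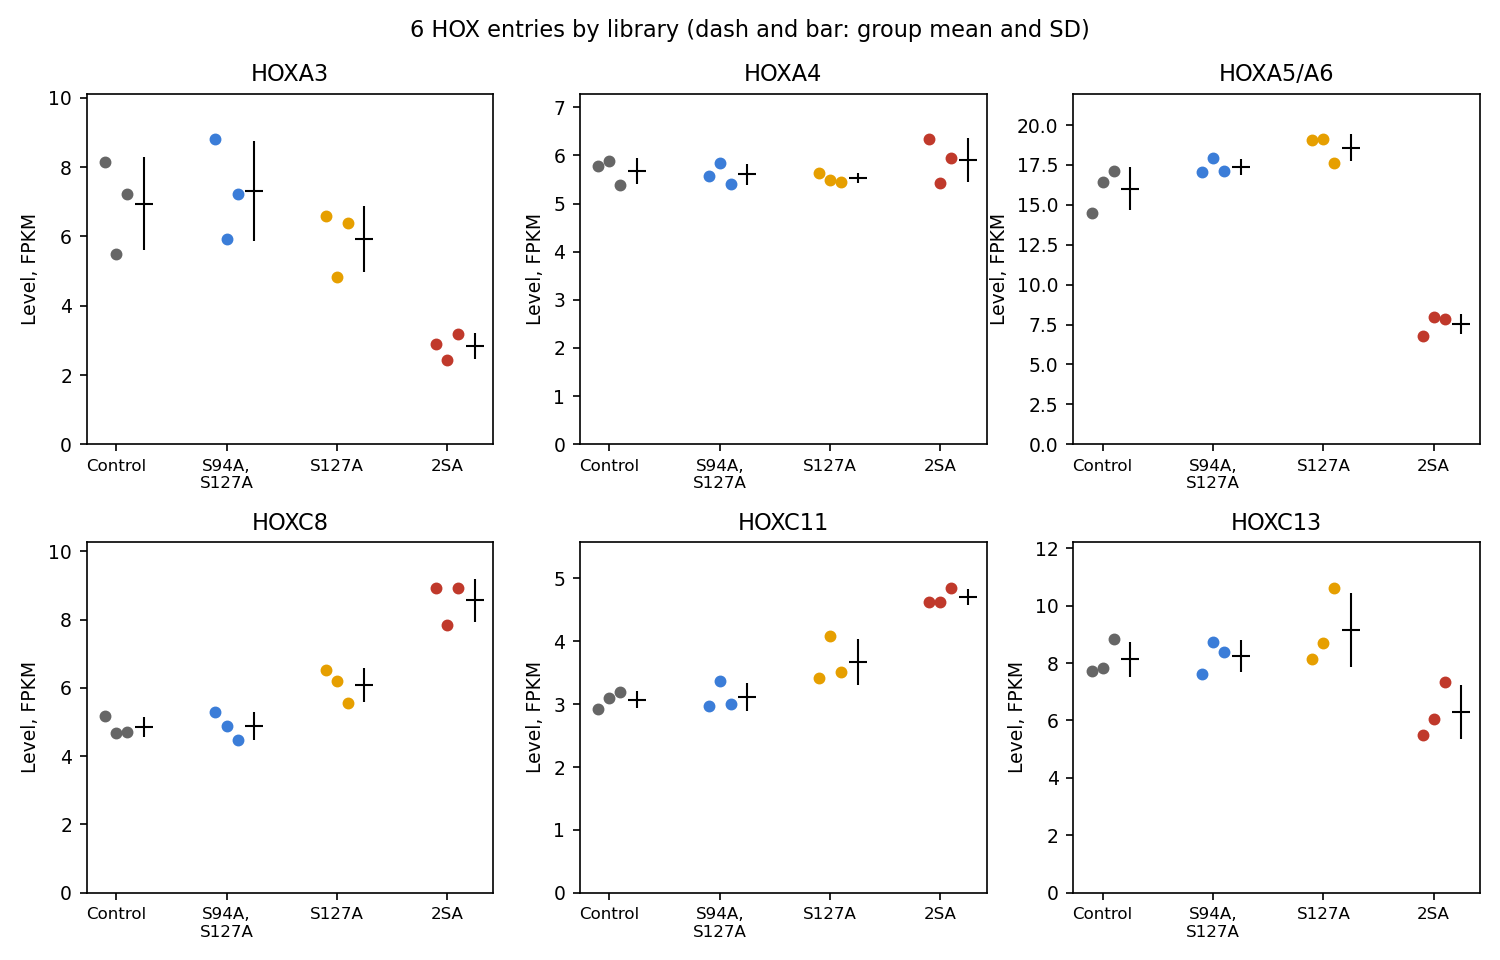
Level in FPKM of HOXA3, HOXA4, HOXA5/A6, HOXC8, HOXC11 and HOXC13 in each library (points, 3 per group), with the group mean (dash) and SD (bar). HOXA3 and HOXA5/A6 were lower and HOXC8 and HOXC11 higher in all 3 YAP-2SA libraries than in the other 9, while HOXA4 overlapped between groups.

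In HOXB, HOXB2 rose by 0.46 in YAP-2SA against Control (adjusted p = 0.015 from limma) and by 0.50 against YAP-S127A (adjusted p = 0.0127). Against YAP-S94A,S127A its log2 fold change of 0.30 did not pass the test (adjusted p = 0.0839). HOXB3/B4 rose by 0.29 against Control (adjusted p = 0.036). In alternative settings the adjusted p against Control reached 0.0674 for HOXB2 (over 0.05 in 2 of 20) and 0.127 for HOXB3/B4 (4 of 20). The other 4 tested HOXB entries did not pass the test against Control. Of these, HOXB5/B6 was at 9.09 to 11.8 FPKM in Control and 11.3 to 15.5 FPKM in YAP-2SA, HOXB8 at 7.74 to 12.3 FPKM and 7.15 to 10.3 FPKM, and HOXB13, a gene of prostate and hindgut, at 3.23 to 4.08 FPKM and 2.72 to 3.27 FPKM. The libraries of each overlapped. The HOXB entries summed to 109 ± 15.9 FPKM in Control, 110 ± 10.2 in YAP-S127A, 121 ± 8.35 in YAP-S94A,S127A and 131 ± 11.3 in YAP-2SA (SD, n = 3 each).

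In HOXD, 0 of 5 tested entries passed the test in YAP-2SA against Control, and their log2 fold changes ran from -0.04 (HOXD10) to 0.23 (HOXD13), each with an unadjusted p above 0.05 in limma. HOXD9, the highest HOXD entry, was at 6.83 to 7.33 FPKM in Control and 5.55 to 7.98 FPKM in YAP-2SA, and the 95% interval of its difference ran from -0.28 to 0.25. HOXD8 was at 2.41 to 2.48 and 2.06 to 3.13 FPKM, HOXD13 at 4.004 to 4.90 and 4.92 to 6.06 FPKM, HOXD4 at 0.599 to 1.16 and 0.674 to 1.10 FPKM, and HOXD10 at 0.650 to 1.27 and 0.711 to 1.09 FPKM in Control and YAP-2SA. Of these 5, the groups did not overlap in HOXD13, which was higher in YAP-2SA. The HOXD sum was 17.0 ± 0.789 FPKM in Control, 16.8 ± 1.98 in YAP-S127A, 18.1 ± 0.513 in YAP-S94A,S127A and 17.7 ± 1.28 in YAP-2SA (SD, n = 3 each).

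Without the library labelled Control replicate 3, HOXA3 (log2 fold change -1.01, adjusted p = 0.0027) and HOXA5/A6 (-0.95, adjusted p = 1.4e-05) were still called in YAP-2SA against Control, with folds of 2.40 and 2.05. By the adjusted p alone, 7 HOX entries passed in place of 9. HOXB3/B4 (adjusted p = 0.0617) and HOXC13 (adjusted p = 0.126) were lost. Without the same library, 0 HOX entries passed by the adjusted p in YAP-S127A against Control, and 0 in YAP-S94A,S127A against Control.

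Directly against YAP-S127A, which carries 1 of the 2 substitutions of YAP-2SA, the HOX entries called were HOXA3 and HOXA5/A6, 2 of 24 (8.33%) beside 11.1% of all tested entries (5.94% in the lower direction). By the adjusted p alone, 4 HOX entries were higher and 3 lower (29.2% of 24), beside 32.8% of all (18.3% higher and 14.5% lower). Against YAP-S94A,S127A, 2 of 24 were called beside 15.9% of all (8.1% in the lower direction), again HOXA3 and HOXA5/A6, and 2 were higher and 3 lower by the adjusted p (20.8%) beside 43.5% of all (23.2% higher and 20.3% lower). The 3 comparisons share the YAP-2SA libraries and are not independent of each other.

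In A375-YAP-S127A cells, 0 of 24 HOX entries passed an adjusted p of 0.05 in limma against Control, beside 6.31% of all tested entries (2.47% with the fold above 2), and 4 had an unadjusted p under 0.05, beside 19.6% of all. These 4 were HOXC8 (log2 fold change 0.28, adjusted p = 0.0857), HOXA5/A6 (0.21, adjusted p = 0.157), HOXC11 (0.20, adjusted p = 0.182) and HOXC4/C5/C6 (0.16, adjusted p = 0.254). The 3 YAP-S127A libraries of HOXC8, HOXC11 and HOXA5/A6 lay above those of Control, 3 of 24 entries without overlap beside 21.3% of all. The estimate for HOXA5/A6 was thus above 0 in YAP-S127A, with a 95% interval from 0.04 to 0.37, and below 0 in YAP-2SA. HOXA3 had a log2 fold change of -0.19, with an interval from -0.56 to 0.17.

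In A375-YAP-S94A,S127A cells, 0 of 24 HOX entries passed against Control in limma, beside 0.179% of all tested entries (0.173% with the fold above 2). The entry HOXC4/C5/C6 alone had an unadjusted p under 0.05 (log2 fold change 0.17, adjusted p = 1), beside 4.39% of all entries. HOXA3 (0.07, interval -0.30 to 0.43), HOXA5/A6 (0.11, interval -0.05 to 0.28), HOXC8 (0.01, interval -0.18 to 0.19) and HOXC11 (0.01, interval -0.15 to 0.18) had intervals that include 0 and do not include the YAP-2SA estimate. YAP-S127A against YAP-S94A,S127A, which differ by S94A, gave 0 of 24 HOX entries beside 10.7% of all (3.49% with the fold above 2). An unadjusted p under 0.05 was reached by 4 of them, HOXC8 (0.27, adjusted p = 0.066), HOXC11 (0.18), HOXB8 (-0.48) and HOXD10 (-0.34), beside 25.0% of all.

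**Figure D4:**
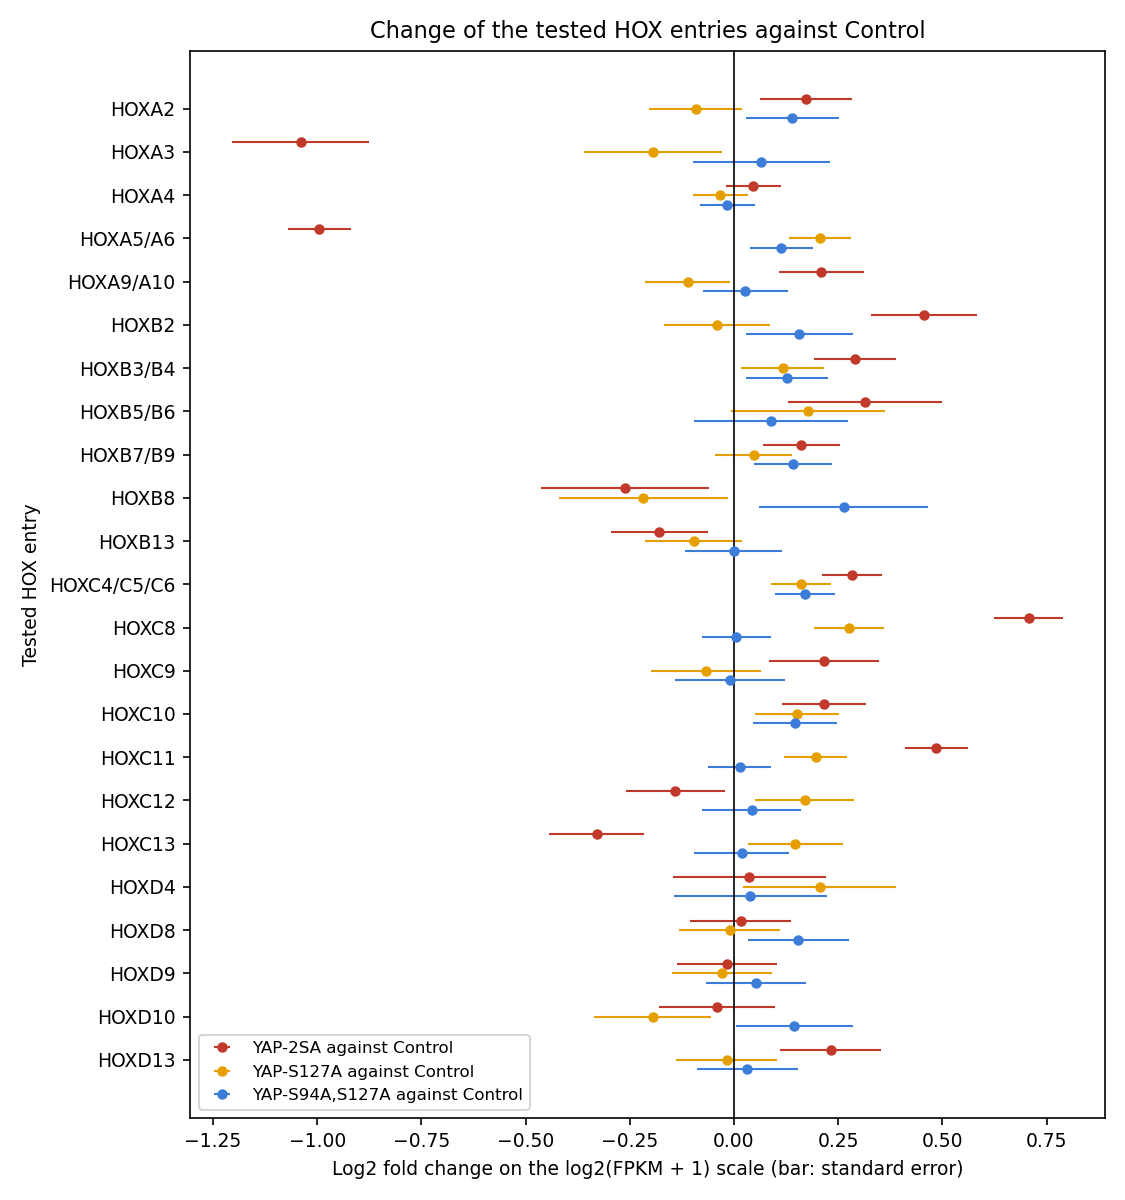
Log2 fold change against Control, on the log2(FPKM + 1) scale, of tested HOX entries ordered by cluster and paralog number, for the 3 mutants (points, with standard errors as bars). HOXA3 and HOXA5/A6 in YAP-2SA are at -1.04 and -0.995, whereas the YAP-S127A and YAP-S94A,S127A estimates lie between -0.22 and 0.28.

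The partners and regulators of the HOX genes were read from 6 lists. Among 9 DNA-binding cofactors, 3 rose and 3 fell in YAP-2SA against Control by the adjusted p, and 1 each was called. By the adjusted p these were 6 of 9 (66.7%), beside 42.3% of all tested entries (22.9% higher and 19.5% lower), and the 2 called were 22.2%, beside 15.5% of all. PKNOX2, a TALE-class partner, was at 5.06, 4.72 and 4.33 FPKM in Control and 0.0432, 0.0807 and 0.0210 FPKM in YAP-2SA, a log2 fold change of -2.44 (adjusted p = 3.3e-09 from limma). PBX4 rose by 0.78 (adjusted p = 5.2e-04), and MEIS1 fell by 0.59 (adjusted p = 0.0038). PKNOX2 was also lower in YAP-S127A, at a mean of 3.25 against 4.71 FPKM in Control (log2 fold change -0.42, adjusted p = 0.0113).

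Of 30 Polycomb genes, 5 rose and 6 fell in YAP-2SA against Control by the adjusted p and 1 was called. These shares (36.7% and 3.33%) were below those of all tested entries (42.3% and 15.5%). JARID2, an accessory subunit that recruits the PRC2 complex, fell from a mean of 10.4 to 3.84 FPKM (log2 fold change -1.23, adjusted p = 1.2e-06 from limma). The entry of PHC2 of PRC1, which it shares with a microRNA gene, fell by 0.92 (adjusted p = 7.0e-05), and RBBP7, a histone-binding subunit, rose by 0.53 (adjusted p = 3.6e-06). The catalytic subunit EZH2 rose by 0.23 (adjusted p = 0.0199). Of 18 Trithorax and H3K27 demethylase genes, 3 rose and 5 fell by the adjusted p and 0 were called, with 9 at an unadjusted p under 0.05. The 44.4% that passed by the adjusted p was near the 42.3% of all tested entries, as were the 9 of 18 near the 49.7% at an unadjusted p under 0.05, and 15.5% of all were called. MLLT3, a reader of histone acylation, fell by 0.63 (adjusted p = 1.2e-04), and WDR5, a shared subunit of these complexes, rose by 0.39 (adjusted p = 1.8e-04). An entry shared by MLL2, an H3K4 methyltransferase, and PRKAG1 fell by 0.32 (adjusted p = 1.9e-04), and the 2 genes could not be told apart.

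The retinoic acid and CDX list had 11 of 19 genes tested, of which 1 was called higher and 4 lower in YAP-2SA against Control, and 2 and 4 passed by the adjusted p. Of all tested entries, 7.59% were called higher and 7.86% lower, and 42.3% passed by the adjusted p, beside 45.5% called and 54.5% passing in this list of 11. ALDH1A3, which makes retinoic acid, fell from a mean of 176 to 54.7 FPKM (log2 fold change -1.67, adjusted p = 1.6e-08 from limma). The retinoid receptor RXRG fell from 8.60 to 0.0870 FPKM (-3.14, adjusted p = 3.4e-08), and STRA6, the retinol transporter, fell by 1.25 (adjusted p = 3.1e-07). RXRG was lower in YAP-S127A as well, at 4.24 FPKM (-0.89, adjusted p = 0.0043). Of the other homeobox genes and flanking genes, 15 of 28 were tested, with 2 called higher and 2 lower, and 5 and 4 by the adjusted p. The 4 called were 26.7% of 15, beside 15.5% of all tested entries, and the 9 were 60.0%, beside 42.3%. EN2, a gene of the midbrain-hindbrain border, fell by 1.28 (adjusted p = 4.3e-07), DLX2, of the forebrain and pharyngeal arches, fell by 1.09 (adjusted p = 2.4e-04) and MSX1, of the craniofacial mesenchyme and neural crest, rose by 1.47 (adjusted p = 4.2e-06).

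The noncoding and microRNA list of the clusters had 12 of 29 genes in the table and 1 tested. HOTAIRM1, a noncoding RNA of the HOXA cluster, was at 2.85 to 4.99 FPKM over the libraries, with a log2 fold change of 0.27 in YAP-2SA against Control (adjusted p = 0.113 from limma). HOTAIR, in HOXC, was at 0.426 to 0.837 FPKM. MIR10A, MIR10B, MIR196A1, MIR196A2 and MIR196B were listed at 0 in all 12 libraries. MIR615 was at 27.6 FPKM in YAP-2SA replicate 3 and at 0 in every other library. The libraries were of messenger RNA, so these values do not show whether the microRNAs were present. Over the 84 tested genes of the 6 lists, 40 passed by the adjusted p in YAP-2SA against Control (47.6%, beside 42.3% of all tested entries), 4 in YAP-S127A (4.76%, beside 6.31%) and 0 in YAP-S94A,S127A (beside 0.179%), where 4 had an unadjusted p under 0.05 (4.76%, beside 4.39%). The shares over the 6 lists were thus near those of all tested entries. Of the 84 genes, 8 lay on an entry with other symbols.

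Several lineage markers also differed between the groups. The 10 melanocytic markers, of which 3 were at 1 FPKM or more in every library and 6, the pigment genes PMEL, MLANA, TYR, TYRP1, DCT and GPR143, below 1 FPKM in every library, summed to 287 to 351 FPKM in Control, 238 to 309 in YAP-S127A, 306 to 343 in YAP-S94A,S127A and 46.8 to 55.7 in YAP-2SA. In Control this sum was mostly SOX10 and S100B. SOX10 fell from a mean of 263 to 6.16 FPKM in YAP-2SA, whereas MITF rose from 8.59 to 35.0 FPKM. S100B was at 41.3 to 51.7 FPKM in Control and 0.606 to 1.03 FPKM in YAP-2SA. PAX3 overlapped, at 5.62 to 6.02 FPKM in Control and 5.65 to 7.88 FPKM in YAP-2SA. The 5 fibroblast markers summed to 3.81 to 6.05 FPKM in Control, 13.4 to 14.9 in YAP-S127A, 4.43 to 5.61 in YAP-S94A,S127A and 42.8 to 50.2 in YAP-2SA. COL1A1 made up most of the sum in YAP-2SA, at 27.9 to 36.35 FPKM. It was at 6.11 to 8.415 FPKM in YAP-S127A, 0.236 to 0.428 FPKM in Control and 0.162 to 0.261 FPKM in YAP-S94A,S127A. LUM was at 1.13 to 1.79 FPKM in Control and 1.91 to 2.86 FPKM in YAP-2SA, while COL1A2 and DCN were below 1 FPKM everywhere. The entry of PDGFRB, shared with CSF1R, rose from 2.13 to 3.10 FPKM in Control to 8.11 to 12.1 FPKM in YAP-2SA. The 4 keratinocyte markers summed to 30.1 to 33.2 FPKM in Control, 29.9 to 32.5 in YAP-S127A, 30.3 to 37.0 in YAP-S94A,S127A and 23.4 to 30.3 in YAP-2SA, mostly KRT10, which was at 21.2 to 30.0 FPKM over the libraries, with KRT1 below 1 FPKM everywhere. KRT14 fell from 6.16 to 7.62 FPKM in Control to 0.362 to 0.551 FPKM in YAP-2SA, whereas KRT5 was at most 0.0777 FPKM in Control and rose to 1.37 to 1.67 FPKM in YAP-2SA. The 4 leukocyte and 3 endothelial markers were below 1 FPKM in all libraries. The part of these changes in the HOX results was not tested.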

How the data were processed

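Messenger RNA of 12 A375 libraries was measured by RNA-seq. The authors aligned reads to hg19 with Bowtie2 2.0.0 and TopHat2 2.0.4, assembled transcripts with Cufflinks 2.0.2 (versions from the submitters' processing notes), and deposited a log2 value of FPKM + 1 per entry and library. Strand and the division of multiply aligned reads are not given in the sources used here, so antisense and overlapping genes, such as HOXA3 and the genes within its span, cannot be fully told apart. Of 31588 entries, 3 identical ones were removed. Limma 3.58.1 (R 4.3.3) took 1 mean per group and a trend of the variance with level, and was tested on simulated data. Figures used Python 3.11.15 and matplotlib 3.10.9. Gene positions are from GENCODE v44lift37 on GRCh37, start-site windows from RefSeq on GRCh38.p14.

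Values of 1 HOX gene are not reported here. The members and lists were chosen with earlier results of these data known. Per-library values were given for called entries and the 6 with the highest mean. Ranges were given for most of the rest, for several tested entries in Control and YAP-2SA only. For HOXA2, HOXA9/A10 and HOXC12 only log2 fold changes were given. From each list the 3 genes with the smallest p in YAP-2SA against Control were named. EZH2, the S127A values of PKNOX2 and RXRG, and the entries plotted singly were chosen after their values were seen. Libraries of the same replicate number are not said to share a day or culture, so the main fit did not pair them. The p-values measure only the spread between these samples, which may be technical, and with 3 libraries in each group the smallest p of an exact permutation test is 0.1. Alternatives were another pseudocount, other filters, median-ratio scaling, only the libraries compared, the replicate block, no intensity trend, no fold threshold, the fold on the log2 scale, summed entries of a symbol, and each library left out.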

Additional observations from a re-analysis of the deposited data

How the results depend on the processing

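HOXA3 and HOXA5/A6 kept an adjusted p under 0.05 in all 20 alternatives of each comparison of YAP-2SA, as did HOXC8, and over all tested alternatives 391 values of single entries kept their side of the threshold, 29 missed it and 0 reversed in sign. Without a fold threshold, the HOX entries called were 9 against Control, 7 against YAP-S127A and 5 against YAP-S94A,S127A. With the fold taken on the log2(FPKM + 1) scale, 1 entry was called against Control (HOXA3) and 1 against YAP-S127A (HOXA5/A6). With each library left out, 1 to 2 entries were called against YAP-S127A, the 1 being HOXA5/A6 without YAP-S127A replicate 1 or without YAP-2SA replicate 2. Entries that missed the threshold in some alternatives were HOXC13 against Control (8 of 20) and against YAP-S94A,S127A (4), HOXB3/B4 against Control (4), HOXB2 against Control (2) and against YAP-S127A (1), and HOXC11 (3) and HOXA9/A10 (7) against YAP-S127A, and the cause was not tested. Over all tested entries, the deviations of same-numbered libraries correlated at -0.149 to 0.163, so the numbers were not taken as pairs. Single HOX entries could still share an order of replicates, as HOXA3 was lowest in replicate 2 in every group. With the replicate block, 2 HOX entries were called in each YAP-2SA comparison and 0 in the others, and 10, 7 and 9 passed by the adjusted p against Control, YAP-S127A and YAP-S94A,S127A, with 1 in YAP-S127A against Control and 1 against YAP-S94A,S127A. Depth is unknown, which limits statements on genes below 1 FPKM.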
